A study of Mus musculus with 6 samples.

Results

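The 30 genes described here are weakly expressed in wild-type mouse embryonic fibroblasts (MEFs) and were higher in every culture that lacked Bahd1. They were taken from the comparison table that the authors deposited, which names 491 of the 23332 transcript clusters measured on the array. A gene was kept when the mean of its Bahd1-WT arrays was under a limit on level, its Bahd1-KO mean was higher by at least 0.5 on the log2 scale, and its lowest Bahd1-KO value lay above its highest Bahd1-WT value. Of the named genes, 44 outside the Y chromosome met these limits, and 14 of them were left out by a list of 31 names. The remaining 30 were therefore chosen by the contrast between the genotypes itself, so their differences are given as a description. The p-values printed for them below are no independent test of that contrast. The median Bahd1-WT mean of the 30 genes was 5.51, above the array medians of 5.01 to 5.06 over all clusters. "Weakly expressed" refers to the limit on level only. This limit lies above the Bahd1-WT mean of 57.2% of all clusters, between Stc1 at 5.72, the highest gene inside it, and Ly75 at 5.78, the lowest gene that it alone kept out, and the level of a cluster on such an array also depends on its probes.

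RNA levels were read from 6 Affymetrix exon arrays (Mouse Exon 1.0 ST). Of these, 3 held RNA of primary MEFs from Bahd1-KO embryos, in which the gene is deleted on both alleles, and 3 held RNA of MEFs from Bahd1-WT embryos, all at E13.5 and of strain C57BL/6. The embryos came from crosses of heterozygous mice and were processed 1 by 1, so each array stands for the culture of a different embryo, and neither group received any agent. These cultures were made from the minced body without the head and can hold more than fibroblasts. In such bulk RNA, fewer cells of a type and less RNA per cell cannot be told apart.

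BAHD1 is a chromatin protein with a bromo-adjacent homology domain. It works in a repressive complex with MIER proteins, histone deacetylases and histone methyltransferases, which condenses chromatin and silences genes. The level of Bahd1 itself was not analysed here, since none of the 491 names is Bahd1.

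The 30 genes were higher in Bahd1-KO MEFs by 0.52 to 1.52 on the log2 scale (n = 3 per genotype), which is 1.43-fold to 2.86-fold, with a median of 0.71. The median difference of all 23332 clusters was 0.02, and that of the 354 named genes with a higher mean in Bahd1-KO MEFs was 0.53. Mean levels ran from 5.69 to 6.96 in Bahd1-KO MEFs and from 4.43 to 5.72 in Bahd1-WT MEFs. In 6 genes, Aldh3b2, Ccdc68, Bex1, Lrrtm2, Aldh1a3 and Anxa8, the difference was over 1. By the rule, the arrays of the genotypes were apart in all 30, as they were in this direction in 11.4% of all clusters and in the opposite direction in 6.64%. Limma over all clusters called 0 of the 30 and 0 of the 23332 clusters at an adjusted p under 0.05 (0%), with adjusted p-values of 0.222 to 0.482 for the 30. Without adjustment, 2425 clusters had a p under 0.05. With 3 arrays a genotype, the smallest two-sided p of an exact permutation test is 0.1.

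**Figure D1:**
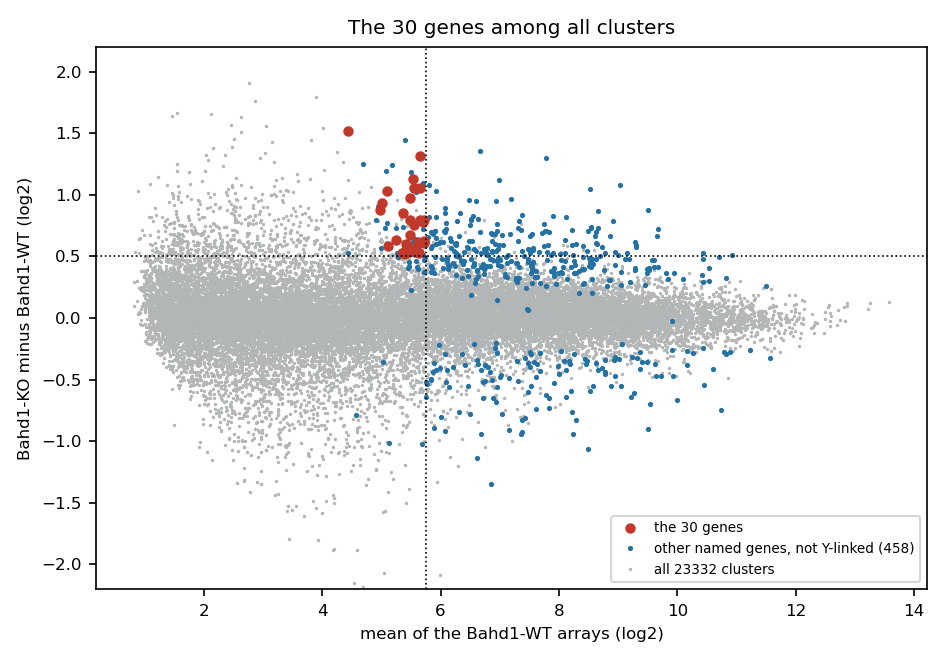
Each point is a transcript cluster, with the mean of the 3 Bahd1-WT arrays on the x axis and the Bahd1-KO minus Bahd1-WT difference on the y axis, both on the log2 scale. The 30 genes (red) lie left of the limit on level and above that of 0.5, among other named genes (blue) and all 23332 clusters (grey). The axis stops at 2.2, which leaves out 1 cluster.

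Most clusters that meet the same numeric limits have no name in the files. Over all 23332 clusters, 281 (1.2%) met them with higher values in Bahd1-KO MEFs, and 315 (1.35%) met the mirrored limits with lower values in Bahd1-KO MEFs and a Bahd1-KO mean under the limit on level. Among dim clusters as a whole, higher values were thus not more frequent than lower values. Many of these clusters lay below the level of any of the 30 genes. From the lowest mean of the 30 (4.43) up to the limit, 89 clusters (2.96% of 3005) were higher and 61 (2.11% of 2893) were lower in Bahd1-KO MEFs. In the named table, 44 (8.96%) were higher and 10 (2.04%) were lower by these limits, but this table holds only clusters that the authors had called on the same arrays.

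Among the signals and receptors were genes of 2 neuropeptides, a glycoprotein hormone and a cytokine receptor, which differed by 0.62 to 0.88. Tac1 encodes the precursor of substance P and neurokinin A, which sensory neurons release. It was at 6.11, 5.751 and 5.71 in Bahd1-KO MEFs 1 to 3, against 5.11, 5.11 and 4.71 in Bahd1-WT MEFs 1 to 3, a difference of 0.88 (standard error from limma 0.16). The lowest Bahd1-KO value was thus 0.60 above the highest Bahd1-WT value. Cck encodes cholecystokinin, a peptide of gut endocrine cells and neurons. It was at 6.21, 6.08 and 6.18 in Bahd1-KO MEFs, against 5.16, 5.67 and 5.62 in Bahd1-WT MEFs. The Bahd1-KO values were close together, and most of the spread of Cck came from the low value of Bahd1-WT MEFs 1 (difference 0.67, standard error 0.15). Stc1 encodes stanniocalcin 1, a secreted regulator of calcium and phosphate. Its values were 6.48, 6.36 and 6.71 in Bahd1-KO MEFs and 5.36, 5.73 and 6.06 in Bahd1-WT MEFs, with Bahd1-WT MEFs 3 only 0.29 below the lowest Bahd1-KO value.

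Il1rl2, the receptor of interleukin-36, was at 6.24, 6.23 and 6.49 in Bahd1-KO MEFs and 5.56, 5.91 and 5.64 in Bahd1-WT MEFs. The genes of its closest relatives, Il1r1 and Il1rl1, lie next to it on chromosome 1. Both were also higher in Bahd1-KO MEFs, Il1rl1 by 0.68 and Il1r1 by 0.48. Of 8 lists with 74 partners and pathway relatives of the 30 genes, 7 genes were named in the table. All 7 had higher means in Bahd1-KO MEFs, as did 72.1% of all named genes, and in 2 of the 7, Rab3b and Prkar2b, the values of both genotypes overlapped. None of the 10 listed partners of Tac1 and Cck, which include their receptors and processing enzymes, was named, and their levels were not analysed here.

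The promoters of both neuropeptide genes are shown with those of Slc6a17 and Bex1, because these are the 4 windows that hold a common short motif, for which they were picked. Each runs from 250 bases before to 50 bases after the RefSeq start (build GRCm38.p6). Capitals mark TGCGTCA or its reverse complement TGACGCA, a relative of the cyclic AMP response element, and TGANTCA, the motif of AP-1 factors. The windows are chr6:7554811-7555110 on the plus strand for Tac1, chr9:121495645-121495944 on the minus strand for Cck, chr3:107517969-107518268 on the minus strand for Slc6a17 and chrX:136215464-136215763 on the minus strand for Bex1.
Tac1: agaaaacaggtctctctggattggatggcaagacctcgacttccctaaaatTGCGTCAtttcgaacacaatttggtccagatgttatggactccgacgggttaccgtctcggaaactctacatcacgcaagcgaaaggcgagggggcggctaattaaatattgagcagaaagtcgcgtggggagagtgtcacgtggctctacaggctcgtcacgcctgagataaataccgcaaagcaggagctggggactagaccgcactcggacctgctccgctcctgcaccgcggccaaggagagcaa
Cck: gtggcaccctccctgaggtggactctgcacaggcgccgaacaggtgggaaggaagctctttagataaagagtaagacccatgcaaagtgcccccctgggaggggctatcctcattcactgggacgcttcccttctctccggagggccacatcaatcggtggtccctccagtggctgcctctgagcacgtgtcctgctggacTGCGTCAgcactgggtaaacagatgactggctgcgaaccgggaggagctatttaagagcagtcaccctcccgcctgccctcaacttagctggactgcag
Slc6a17: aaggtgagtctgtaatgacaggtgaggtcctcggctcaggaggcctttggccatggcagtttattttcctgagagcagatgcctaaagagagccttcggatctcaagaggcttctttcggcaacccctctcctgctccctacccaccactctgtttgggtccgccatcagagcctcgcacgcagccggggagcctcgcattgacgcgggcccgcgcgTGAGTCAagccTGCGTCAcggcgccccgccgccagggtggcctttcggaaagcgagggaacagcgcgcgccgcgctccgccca
Bex1: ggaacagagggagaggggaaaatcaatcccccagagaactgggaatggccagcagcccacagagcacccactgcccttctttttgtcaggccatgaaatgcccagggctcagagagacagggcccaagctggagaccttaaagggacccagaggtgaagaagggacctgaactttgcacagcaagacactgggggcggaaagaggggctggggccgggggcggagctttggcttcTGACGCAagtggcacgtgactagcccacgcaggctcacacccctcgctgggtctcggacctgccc
The match begins 199 bases before the start in Tac1, 49 in Cck, 22 in Slc6a17 and 15 in Bex1. Promoter windows were found for 20 of the 30 genes, 27 windows in all, since some genes have several starts. TGCGTCA was in 4 of these windows (14.8%), in 9 of 336 windows (2.68%) of the other named genes that were higher in Bahd1-KO MEFs, and in 695 of all 32851 windows (2.12%). It was added to the search after the letters of the Tac1 and Cck windows had been read, so its share is a description of these windows only. The motif was absent from the windows of Tspan7, Ddc, Pde10a and Adarb1, which are also known from neurons, and from the other window of Slc6a17.

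The other motifs were searched on both strands of the same windows. TGANTCA was in 3 windows (11.1%), against 8.93% in the other named genes that were higher and 7.81% of all windows. TGACGTCA, the full cyclic AMP response element, was in 1 window (3.70%), that of Lmcd1, against 2.98% and 1.79% in these sets. TATAAA was in 4 windows (14.8%), against 10.7% and 13.6%, and CCAAT in 9 (33.3%), against 34.5% and 37.4%. GGGCGG, which Sp1 factors bind, was in 16 windows (59.3%), close to the 56.5% of the other named genes that were higher, and in 35.7% of all windows. The windows of the 30 genes held a median of 10 CpG dinucleotides in 300 bases, against 17 in those of the other named genes that were higher and 7 in all windows. The genes ranged widely, with 53 CpG in a window of Asphd2, 46 in that of Adarb1 and 22 in that of Tac1, but 3 in that of Il1rl2 and 3 in that of Clca1.

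**Figure D2:**
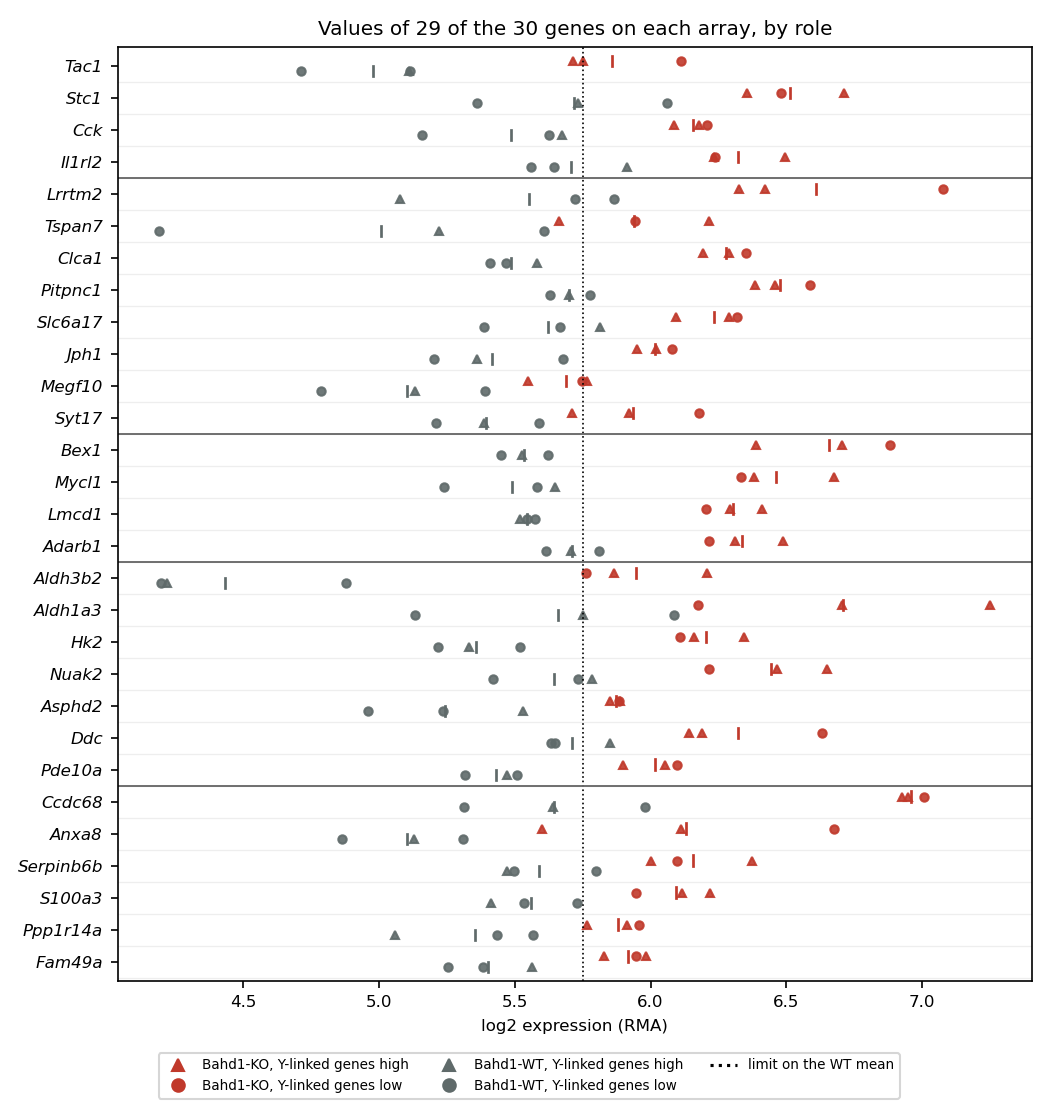
Points give the log2 value of 29 of the 30 genes on each array, Bahd1-KO in red above and Bahd1-WT in grey below in each row, with a bar for the mean of 3 arrays. Triangles are arrays with high levels of Y-linked genes, circles those with low levels, and lines part the role groups. In Tspan7 and Aldh1a3 the lowest Bahd1-KO value nearly touches the highest Bahd1-WT value, while in Ccdc68 and Aldh3b2 they lie furthest apart.

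A group of 8 genes encodes proteins of membranes, vesicles and lipid transfer, with differences of 0.54 to 1.05. Several are known from synapses. Lrrtm2 encodes a postsynaptic adhesion protein that binds neurexins. It was at 7.08, 6.32 and 6.42 in Bahd1-KO MEFs, against 5.86, 5.08 and 5.72 in Bahd1-WT MEFs (difference 1.05, standard error 0.29). This cluster is read by 20 probes, fewer than any other of the 30, and in each genotype 1 array stood apart, high in Bahd1-KO MEFs 1 and low in Bahd1-WT MEFs 2. Slc6a17 encodes a vesicular transporter of neutral amino acids in neurons. Its values were 6.32, 6.29 and 6.09 in Bahd1-KO MEFs and 5.66, 5.81 and 5.39 in Bahd1-WT MEFs. Syt17 encodes a protein of the synaptotagmin family, which acts in membrane traffic. It was at 6.18, 5.71 and 5.92 in Bahd1-KO MEFs and 5.21, 5.39 and 5.59 in Bahd1-WT MEFs, so that the genotypes came within 0.12 of each other. Rab3b, a small GTPase of vesicle release, was the only gene named from 16 further synaptic genes. Its mean was higher by 0.51 in Bahd1-KO MEFs, but its arrays overlapped between the genotypes.

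Tspan7, an X-linked gene of a tetraspanin that is abundant in neurons, had the widest spread of the 30. Its values were 5.94, 6.21 and 5.66 in Bahd1-KO MEFs, against 4.19, 5.22 and 5.61 in Bahd1-WT MEFs (difference 0.93, standard error 0.38). Without Bahd1-WT MEFs 1, its lowest culture, the difference was 0.53. The gap between the genotypes was 0.05, the smallest among the 30 genes. Tspan7 was the single gene of the 30 with an unadjusted p over 0.05 in limma. The genes were chosen on this contrast, so low p-values of the others follow from that choice. Of the other tetraspanins in the table, Tspan12 was higher by 0.58 and Tspan2 by 0.51 in Bahd1-KO MEFs. Megf10, a receptor by which glia and muscle precursors bind and engulf neighbours, was at 5.749, 5.55 and 5.77 in Bahd1-KO MEFs and 5.39, 5.13 and 4.79 in Bahd1-WT MEFs. It is the only gene of the 30 whose Bahd1-KO mean (5.69) stayed under the limit on level.

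Among the other genes of this group, Clca1 and Pitpnc1 had the smallest spread within genotypes. Clca1 is the name in the files, and RefSeq gives the same accession as Clca3a1, of a family that modulates calcium-activated chloride channels. It was at 6.35, 6.19 and 6.29 in Bahd1-KO MEFs, against 5.47, 5.58 and 5.41 in Bahd1-WT MEFs (difference 0.79, standard error 0.08). Close copies of this gene lie beside it in the mouse genome, and whether its 100 probes tell them apart was not tested. Pitpnc1, a transfer protein of phosphatidylinositol, was at 6.59, 6.38 and 6.46 in Bahd1-KO MEFs and 5.63, 5.70 and 5.78 in Bahd1-WT MEFs. Jph1, which ties the sarcoplasmic reticulum of skeletal muscle to the plasma membrane, was at 6.08, 5.95 and 6.02 in Bahd1-KO MEFs and 5.20, 5.36 and 5.68 in Bahd1-WT MEFs. Jph2, its relative in heart muscle, was higher by 0.71 in Bahd1-KO MEFs, at a mean of 8.93 against 8.22 in Bahd1-WT MEFs, and so outside the limit on level.

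In the group of transcription and RNA, 4 genes differed by 0.63 to 1.13. Bex1, an X-linked gene of a small adaptor protein found mainly in brain, was at 6.88, 6.70 and 6.39 in Bahd1-KO MEFs, against 5.45, 5.52 and 5.62 in Bahd1-WT MEFs (difference 1.13, standard error 0.14). Its genotypes were 0.77 apart, the third widest gap of the 30. Mycl1, called Mycl in RefSeq, encodes the L-Myc transcription factor. It was at 6.33, 6.38 and 6.68 in Bahd1-KO MEFs and 5.58, 5.65 and 5.24 in Bahd1-WT MEFs (difference 0.97, standard error 0.15). Its relative Myc had a mean of 9.23 in Bahd1-KO MEFs and 8.62 in Bahd1-WT MEFs, a difference of 0.61. Lmcd1, a LIM protein that acts with GATA factors in heart and smooth muscle, was at 6.20, 6.29 and 6.41 in Bahd1-KO MEFs and 5.54, 5.52 and 5.58 in Bahd1-WT MEFs. Lmcd1 had the smallest spread within genotypes of all 30 (pooled SD 0.08). Adarb1, which edits adenosine to inosine in RNAs of glutamate receptors, was at 6.21, 6.31 and 6.49 in Bahd1-KO MEFs and 5.81, 5.71 and 5.61 in Bahd1-WT MEFs.

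The 7 enzymes included the gene with the largest difference of the 30. Aldh3b2 encodes an aldehyde dehydrogenase that acts on aldehydes from lipids. It was at 5.76, 5.87 and 6.21 in Bahd1-KO MEFs, against 4.88, 4.22 and 4.20 in Bahd1-WT MEFs, a difference of 1.52 (standard error 0.23). Aldh1a3, which makes retinoic acid from retinaldehyde, was at 6.17, 6.71 and 7.25 in Bahd1-KO MEFs and 6.09, 5.751 and 5.13 in Bahd1-WT MEFs. Its difference of 1.05 came with a standard error of 0.35, and Bahd1-KO MEFs 1 lay only 0.09 above Bahd1-WT MEFs 1. Of the same family, Aldh1l2 had a lower mean in Bahd1-KO MEFs, 6.36 against 6.75 in Bahd1-WT MEFs. None of 11 further genes of retinoic acid synthesis and response was named in the table, and their levels were not analysed here. Hk2, a hexokinase that starts glycolysis in muscle and in growing cells, was at 6.11, 6.16 and 6.34 in Bahd1-KO MEFs and 5.52, 5.33 and 5.22 in Bahd1-WT MEFs. The arrays were 0.59 apart. Nuak2, a kinase related to AMPK, was at 6.22, 6.47 and 6.65 in Bahd1-KO MEFs and 5.73, 5.79 and 5.42 in Bahd1-WT MEFs.

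Ddc makes dopamine and serotonin from their amino acid precursors and is an imprinted gene in mouse heart. It was at 6.63, 6.19 and 6.14 in Bahd1-KO MEFs, against 5.65, 5.85 and 5.63 in Bahd1-WT MEFs, a difference of 0.61 (standard error 0.15). Bahd1-KO MEFs 1 stood highest. None of 8 other genes of aromatic amine metabolism was named, and their levels were not analysed here. Pde10a, a phosphodiesterase of cyclic AMP and cyclic GMP that is abundant in the striatum, was at 6.10, 6.05 and 5.90 in Bahd1-KO MEFs and 5.51, 5.47 and 5.32 in Bahd1-WT MEFs. Of the same family, Pde8b was higher by 0.90 and Pde7b by 0.80 in Bahd1-KO MEFs, at levels above the limit. Asphd2, a membrane protein related to aspartate beta-hydroxylase, was at 5.88, 5.85 and 5.89 in Bahd1-KO MEFs and 4.96, 5.53 and 5.24 in Bahd1-WT MEFs. Its Bahd1-KO values were the closest together of all 30 (SD 0.02).

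The last 6 genes act in calcium binding, protease inhibition and the cytoskeleton, or have less well known roles. Ccdc68, a coiled-coil protein of centrosomes, had the widest gap of the 30. It was at 7.01, 6.95 and 6.93 in Bahd1-KO MEFs, against 5.98, 5.64 and 5.31 in Bahd1-WT MEFs (difference 1.32, standard error 0.17), which left 0.95 between the genotypes. Anxa8, an annexin of epithelia that binds membranes with calcium, was at 6.67, 6.11 and 5.60 in Bahd1-KO MEFs and 4.86, 5.13 and 5.31 in Bahd1-WT MEFs. Here Bahd1-KO MEFs 1 and 3 differed by more than Bahd1-KO MEFs 3 did from any Bahd1-WT culture. S100a3, a calcium-binding protein of hair cuticle, was at 5.95, 6.22 and 6.12 in Bahd1-KO MEFs and 5.73, 5.41 and 5.53 in Bahd1-WT MEFs. Serpinb6b, an inhibitor of serine proteases, was at 6.10, 6.37 and 6.00 in Bahd1-KO MEFs and 5.496, 5.47 and 5.80 in Bahd1-WT MEFs. Its family neighbour Serpinb9b was higher by 1.08 in Bahd1-KO MEFs and just missed the limit on level, at 5.80 in Bahd1-WT MEFs. Ppp1r14a, an inhibitor of myosin phosphatase in smooth muscle, was at 5.96, 5.91 and 5.77 in Bahd1-KO MEFs and 5.44, 5.06 and 5.57 in Bahd1-WT MEFs. Fam49a, called Cyria in RefSeq and a regulator of RAC1 and actin, had the smallest difference of the 30. It was at 5.95, 5.83 and 5.98 in Bahd1-KO MEFs and 5.38, 5.56 and 5.25 in Bahd1-WT MEFs, a difference of 0.52 (standard error 0.10).

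**Figure D3:**
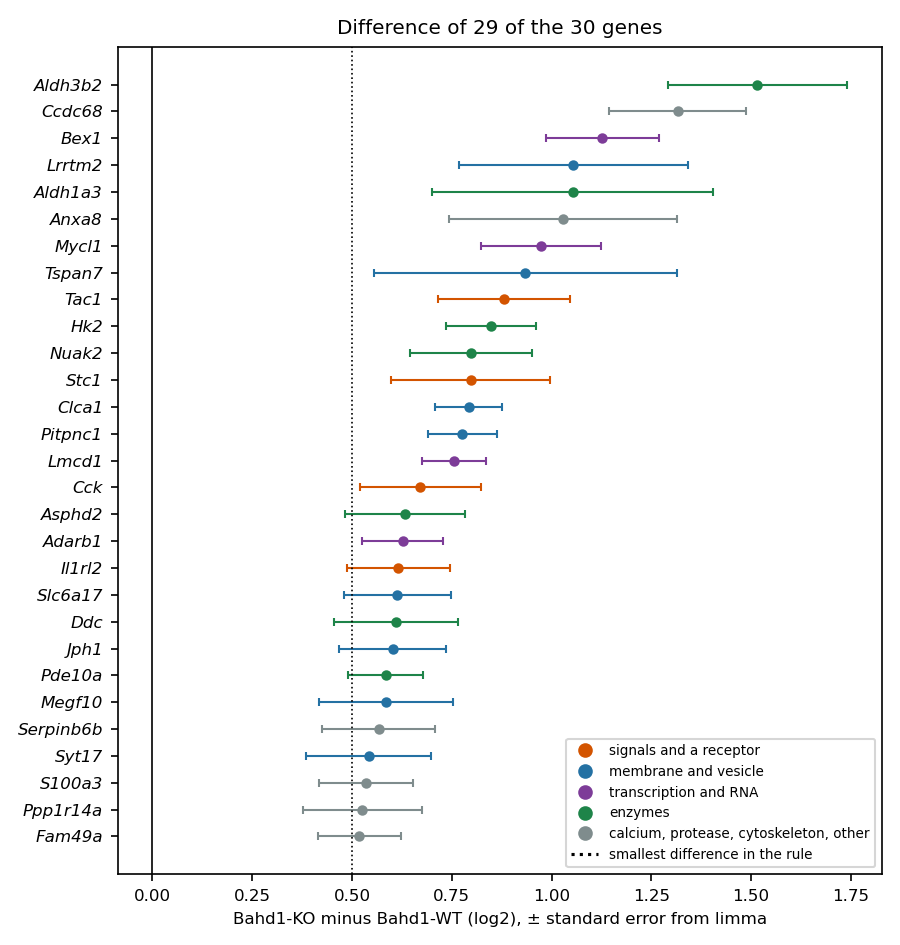
Points give the Bahd1-KO minus Bahd1-WT difference (log2, n = 3 arrays each) of 29 of the 30 genes and bars the standard error from limma, coloured by role, with a dotted line at 0.5. Aldh3b2 leads with 1.52, and Tspan7 has the widest bar with 0.38.

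The 30 genes did not follow a common order among the cultures of a genotype. Bahd1-KO MEFs 1 gave the highest of the 3 Bahd1-KO values for 14 genes, among them Tac1, Cck, Lrrtm2, Slc6a17, Ddc and Anxa8, and Bahd1-KO MEFs 3 for 13, among them Aldh3b2, Aldh1a3, Hk2, Mycl1 and Nuak2. Bahd1-KO MEFs 2 gave it for 3. Over all clusters these shares were 38.2% for culture 1, 30.7% for culture 3 and 31.1% for culture 2. In Bahd1-WT MEFs the highest value fell to culture 1 for 10 genes, to culture 2 for 9 and to culture 3 for 11. Over all clusters these Bahd1-WT shares were 29.8% for culture 1, 34.4% for culture 2 and 35.8% for culture 3. The median SD of the 30 genes was 0.14 in Bahd1-KO MEFs and 0.21 in Bahd1-WT MEFs, and that of all clusters was 0.13 in Bahd1-KO MEFs and 0.14 in Bahd1-WT MEFs.

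The cultures also differed in Y-linked genes. Ddx3y, Eif2s3y and Kdm5d, which lie on the Y chromosome, together averaged 7.06 and 7.03 in Bahd1-KO MEFs 2 and 3, 7.19 in Bahd1-WT MEFs 2, and 2.36 to 2.38 in the other 3 cultures. Male and female mice differ in these genes, and the labels do not state a sex. Between cultures with low Y-linked levels, 1 Bahd1-KO culture against 2 Bahd1-WT cultures, the difference of the 30 genes had a median of 0.77 and reached 1.59. Between those with high levels, 2 Bahd1-KO cultures against 1 Bahd1-WT culture, the median was 0.72 and the highest 1.82. Since the arrays of the genotypes are apart by the rule, every difference is above 0 in both. The size was uneven for some genes. S100a3 differed by 0.32 where the Y-linked genes were low and by 0.75 where they were high, and Aldh1a3 by 0.56 and 1.23. Anxa8 differed by 1.59 where they were low and by 0.73 where they were high, Ddc by 0.99 and 0.32, and Tac1 by 1.20 and 0.62. With so few cultures on each side, the effect of sex on these differences was not tested.

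**Figure D4:**
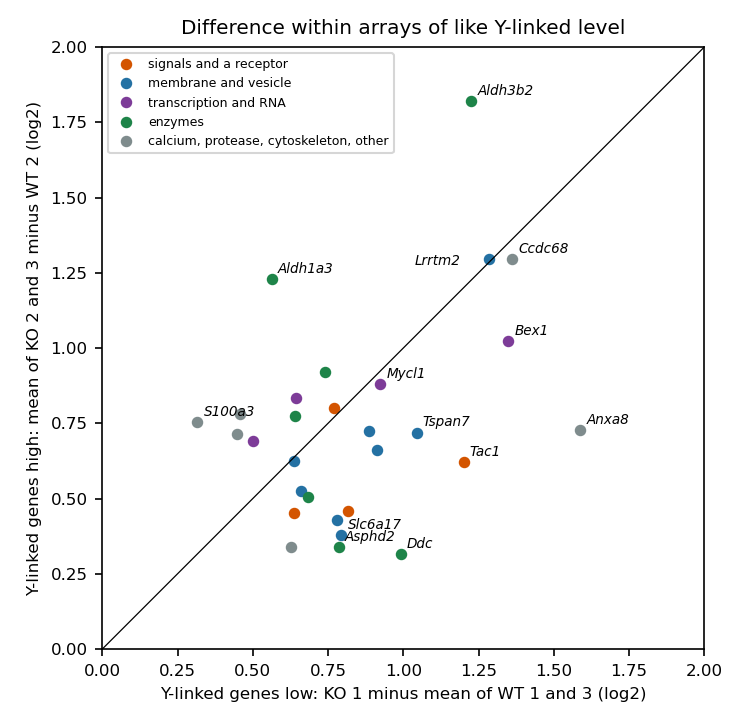
Each of 29 of the 30 genes is placed by its Bahd1-KO minus Bahd1-WT difference (log2) among cultures with low Y-linked levels on the x axis (1 against 2 arrays) and among those with high levels on the y axis (2 against 1 arrays). The line marks equal differences, and S100a3 and Aldh1a3 lie above it while Anxa8, Tac1 and Ddc lie below it.

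The 30 genes lie on 16 chromosomes, with 4 on chromosome 3, 3 each on chromosomes 1, 6, 7 and 18, and 2 on X. In the order of RefSeq protein-coding genes, 8 of the 30 (26.7%) had another named gene within 5 genes on either side. This share was 27.8% of the 479 named genes placed in this way and 18.7% of all protein-coding genes. The 8 genes made 11 such pairs, and the neighbour was higher in Bahd1-KO MEFs in 10 of them, where 72.1% of all named genes were higher. Directly adjacent pairs included Mycl1 and Mfsd2a, Nuak2 and Klhdc8a, and Il1rl2 with Il1r1 and Il1rl1. Mfsd2a, a lipid transporter, was higher by 1.10 and Klhdc8a by 0.71. The neighbour with a lower mean in Bahd1-KO MEFs was Rpa3, 5 genes from Tac1, with a difference of -0.43 (standard error 0.30 from the 6 values alone).

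Named markers of other cell types also differed between the genotype means, but the authors had called every named cluster on these same arrays. The names cover 491 of the 23332 clusters. Of 116 markers in lists for 12 cell types, 15 were named in the table. None is among the 30 genes, but 9 of the 15 were on the list of names left out, and 4 of these, Emcn, Selp, Tnnt2 and Tnni1, met all numeric limits. Of the 13 named markers of cell types other than fibroblasts, 11 had higher means in Bahd1-KO MEFs, where 72.1% of all named genes were higher. Among the 11 were Emcn of endothelium (5.95 in Bahd1-KO and 4.69 in Bahd1-WT MEFs), Des of muscle (7.43 in Bahd1-KO and 6.62 in Bahd1-WT MEFs) and Krt18 of epithelium (10.11 in Bahd1-KO and 9.03 in Bahd1-WT MEFs). The other 2, Pf4 of platelets and Stmn2 of neurons, had lower means, with differences of -0.65 and -0.29. The other named platelet markers, Ppbp and Selp, were higher in Bahd1-KO MEFs, by 0.80 and 0.90. Both named fibroblast markers were lower, Pdgfra by a difference of -0.55 and Lum by -0.59, and still at means of 8.33 and 7.61 in Bahd1-KO MEFs. The part of these cell types in the 30 differences was not tested, and most of their markers have no name in the files. No gene was named from lists of 20 germ line genes and 16 interferon-stimulated genes, and their levels were not analysed here. Ddc was the only one of the 30 on a list of 24 imprinted genes. The other 3 named imprinted genes had lower means in Bahd1-KO MEFs, with differences of -0.75 for Meg3, -0.50 for Rtl1 and -0.47 for Dlk1.

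Genes that share the stem of their symbol with 1 of the 30 also went both ways. Of 22 such named genes outside the 30, 16 had higher and 6 had lower means in Bahd1-KO MEFs. This is near the share of all named genes that were higher, 72.1%. The lower ones were Aldh1l2, Slc40a1 (difference -0.93), Ppp1r3c (-0.94) and the Fam genes Fam180a (-0.94), Fam162a (-0.54) and Fam164a (-0.27), and the stems Slc, Ppp1r, Fam and Ccdc do not stand for a single gene family.

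The limits part genes that are much alike. Just inside the limit on level were Stc1, Adarb1 and Ddc, with Bahd1-WT means of 5.72, 5.71 and 5.71, and just outside it Ly75, Prkg2 and Hpcal1, with 5.78, 5.79 and 5.80 and differences of 0.62, 0.66 and 0.82. Just inside the limit on the difference were Fam49a and Ppp1r14a, with 0.52 and 0.53, and just outside it Cbr3, Rasa4 and Hspa12a, with 0.49, 0.46 and 0.40. Mmp10, Rab3b and Edn1 came nearest among genes whose arrays overlapped, with differences of 0.73, 0.51 and 0.61.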

How the data were processed

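RNA of the 6 MEF cultures was hybridised to Mouse Exon 1.0 ST arrays. The deposited values are log2 levels of transcript clusters, which the authors computed with RMA (background correction, normalization between arrays and summary of the core probes of each gene). The deposited table of 491 named clusters holds the same log2 values, and its fold changes, p-values and SDs were not used. The deposited count of probes in each cluster, which is another kind of number, was used as given. The genome build and software version are not given in the sources used here. Array medians lay between 5.01 and 5.06, and the number of arrays limits the precision.

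Differences are Bahd1-KO minus Bahd1-WT means. Standard errors and p-values come from limma 3.58.1 in R 4.3.3 (lmFit and eBayes, two-sided, Benjamini-Hochberg adjustment over all 23332 clusters), tested on simulated data. The local pooled error test of the methods was not rerun. All 30 accessions matched RefSeq (GRCm38.p6), 3 under another symbol. Of the 30 genes, 29 are named with all array values, and 1 is counted with them but not reported here. This goes beyond the 12 largest differences and up to 4 more genes a role group that the rule for named genes asked for. Genes outside the 30 are Y-linked genes, those nearest to each limit, and named genes of the lists, families and neighbours. Promoter windows run from 250 bases before to 50 after a start. The members and lists were chosen with earlier results of these data known. Partner lists, role groups, neighbours and promoter features were chosen after the data were seen. Same-numbered cultures are not described as paired, and their deviations from the genotype means correlated by -0.0005 to 0.03. The alternatives changed the limits, the normalization, the prior, the weights, the arrays and the covariates.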

Additional observations from a re-analysis of the deposited data

How the results depend on the processing

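The median difference of the 30 genes lay between 0.65 and 0.77 when the arrays were quantile normalized again, centred on their medians, summarised by medians or restricted to cultures of like Y-linked level, and between 0.66 and 0.77 when an array was left out. With the replicate number as a block it was 0.71, as without it, since a balanced block cannot change a difference of means. Limma called 0 clusters with or without the block. Leaving out an array moved no single difference by more than its pooled SD, but that of Tspan7, which has the widest pooled SD, was 0.53 without Bahd1-WT MEFs 1, against 0.93 with all arrays. Of the 24 values that moved by more, 23 came from the cultures of like Y-linked level. No difference changed sign, but for group medians and for fewer arrays this follows from the rule, which sets the genotypes apart. The number of genes within the limits was 30 as given, 15 with a limit of 5.5 on the Bahd1-WT mean and 46 with a limit of 6, and 25 after quantile normalization, all 25 among the 30. It lay between 29 and 35 when an array was left out, with 23 to 28 of the 30 among them. Limma called 36 clusters among the 11666 above the median brightness, 29 higher and 7 lower in Bahd1-KO MEFs, and 0 under its other settings. The 36 clusters were not looked up by name here, so the count of 0 of the 30 called holds only for the settings that called 0 clusters. The count of clusters within the limits lay between 434 and 555 for higher and between 463 and 559 for lower values in Bahd1-KO MEFs when an array was left out, since fewer arrays are more easily apart, and was 89 higher and 61 lower from the level of the dimmest of the 30 genes up. The last check and the counts without an array were chosen after the data were seen.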
